A study of Mus musculus with 18 samples.

Results

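The 38 genes described here are mouse autosomal genes known to be imprinted, taken by symbol from 1 table of 52550 genes, and each of the 38 was found there. The table holds RNA sequencing values of blastocysts (the embryo before implantation), oocytes, and cumulus cells (the somatic cells around the oocyte) of C57BL/6 mice. All 3 came from a PM2.5 exposure group, PM2.5 being fine particulate matter in air, and from a filtered air group. There were 3 libraries in each of the 6 groups, 18 in all. The sources used here give no dose or length of exposure, no age of the mice, no number of cells per library and no account of how the blastocysts were obtained. They also leave unsaid whether replicate libraries are different animals, so each p-value is set against a spread between libraries that may be only technical.

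Most genes are read from both parental copies. At an imprinted gene 1 parental copy is silenced, and the mark that tells the copies apart is laid down in the germ line, for most of these genes as DNA methylation of the maternal copy in the growing oocyte. The embryo keeps these marks through the loss of methylation before implantation, partly through the zinc finger protein ZFP57, which binds the methylated hexanucleotide TGCCGC. Many imprinted genes act on growth, paternally expressed ones often favouring it and maternally expressed ones often limiting it. Of the 38 genes, 23 are known as paternally expressed and 14 as maternally expressed, while Gnas differs between its isoforms. The files do not separate the alleles, so every value here is the total level of a gene, and imprinting itself was not measured.

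A level below is the deposited value, log2(x + 1), where x is a normalized count that may be scaled by transcript length. A difference is a difference of such levels. Such a difference understates the change of genes with low levels. The read depth behind the values is unknown. As these are bulk samples, fewer cells of a type and less RNA per cell cannot be told apart.

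Promoter windows are shown for 3 retrogenes (intronless copies that lie inside an intron of another gene), since their levels differed strongly between tissues, and for Mest, whose level was highest in oocytes. Each window is the 250 bases before the transcript start in RefSeq, build GRCm38.p6, written 5′ to 3′ on the strand of the gene, with TGCCGC and its reverse complement GCGGCA in capitals. The positions are chr2:152686898-152687147 (plus strand) for Mcts2, chr6:58907127-58907376 (minus strand) for Nap1l5, chr11:22971755-22972004 (plus strand) for Zrsr1 and chr6:30737800-30738049 (plus strand) for the upstream one of 2 adjoining starts of Mest, whose windows share 247 of 250 bases.
Mcts2: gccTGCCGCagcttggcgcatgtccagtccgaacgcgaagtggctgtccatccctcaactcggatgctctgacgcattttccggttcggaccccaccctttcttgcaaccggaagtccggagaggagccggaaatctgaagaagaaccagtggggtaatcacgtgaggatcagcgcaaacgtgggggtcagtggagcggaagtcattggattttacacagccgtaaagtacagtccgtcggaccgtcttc
Nap1l5: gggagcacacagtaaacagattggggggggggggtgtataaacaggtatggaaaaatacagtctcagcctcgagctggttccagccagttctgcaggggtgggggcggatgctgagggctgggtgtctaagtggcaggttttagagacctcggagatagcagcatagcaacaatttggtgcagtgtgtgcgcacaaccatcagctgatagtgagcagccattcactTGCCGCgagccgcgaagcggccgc
Zrsr1: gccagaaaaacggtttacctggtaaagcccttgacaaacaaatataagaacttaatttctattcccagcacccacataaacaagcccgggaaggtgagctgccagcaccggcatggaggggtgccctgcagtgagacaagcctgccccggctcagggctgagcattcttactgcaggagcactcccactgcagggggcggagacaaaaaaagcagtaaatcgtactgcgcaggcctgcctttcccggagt
Mest: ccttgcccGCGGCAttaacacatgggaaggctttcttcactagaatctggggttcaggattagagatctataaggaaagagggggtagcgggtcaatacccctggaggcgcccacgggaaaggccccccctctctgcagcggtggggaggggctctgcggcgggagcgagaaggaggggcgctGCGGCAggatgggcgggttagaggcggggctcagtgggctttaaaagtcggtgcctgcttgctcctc

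The hexanucleotide stood in the Mcts2 window 1 time, in the Nap1l5 window 1 time and in the shown Mest window 2 times, and the Zrsr1 window did not hold these letters. The window at the outermost Mest start, chr6:30733256-30733505, held it 0 times and 7 CG dinucleotides. On both strands, 7 of 48 windows of the 32 matched genes held it, or 14.6%, against 2850 of 32841 windows of all RefSeq genes, or 8.68%. Both adjoining Mest windows are among the 7, and counted by gene 6 of 32 (18.8%) held it in a window, against 2660 of 27018 (9.85%). CG dinucleotides numbered 20 in the Mcts2 window, 10 in that of Nap1l5, 8 in that of Zrsr1 and 14 in the shown one of Mest, against medians of 10 over the windows of the imprinted genes and 6 over all windows. H19, Cdkn1c, Peg10, Sgce, Impact and Rtl1 had no entry. A match is a run of letters and not a measured binding site.

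The labelled tissues carried their defining genes. Marker levels averaged over 9 oocyte genes were at least 8.25 in oocyte libraries, and the mean of 10 granulosa and cumulus genes lay between 4.18 and 4.39 in cumulus libraries. Trophectoderm genes (the outer layer of the blastocyst) averaged 6.24 to 6.92 and inner cell mass genes 4.10 to 4.65 in blastocysts. Cumulus libraries also held oocyte genes, at a mean level of 2.10 ± 0.33 with PM2.5 and 1.71 ± 0.17 in filtered air (SD, n = 3 each). They also held red blood cell genes at uneven levels: Hbb-bs, an adult beta globin, had levels of 0.57, 8.09 and 1.71 with PM2.5 and 6.55, 0.85 and 8.63 in filtered air. They held theca and luteal genes at a mean level of 3.32 ± 0.26 with PM2.5 and 2.97 ± 0.15 in filtered air, and leukocyte genes at 1.97 ± 0.20 and 2.22 ± 0.12 in those groups (SD, n = 3 each). In each group 2 of the 5 theca and luteal genes had a mean under 0.5, so the list mean came from its other genes. Of the 8 leukocyte genes, 3 with PM2.5 and 2 in filtered air were under 0.5. Which cells these genes came from was not tested. Among oocyte libraries, filtered-air replicate 3 stood apart, with a score of 21.5 on the first principal component (27.4% of the variance over 4080 genes) against -8.07 to -0.49 in the other 5. Among blastocysts, replicate 1 of both exposures stood apart on that component (27.5% of the variance), at 15.5 with PM2.5 and 15.8 in filtered air, against scores below 0, down to -10.5, in the other 4. In cumulus cells the first component (42.4% of the variance) put the PM2.5 libraries, at -0.45, 17.03 and 24.51, above the filtered-air ones, at -6.25, -14.2 and -20.7. Between 16426 and 17987 genes were above 0 in a library, and at most 0.00803% of the values above 0 were equal in any pair of libraries.

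As a group the imprinted genes ranged from not detected to well detected. In 9 of the 38 at least 1 group had a mean level of 3 or more, a further 15 reached 1 but not 3, and 14 stayed under 1 in every group. A mean level of at least 1 was reached by 12 of the 38 in PM2.5 blastocysts (31.6%) and 13 in filtered-air blastocysts (34.2%). The count was 12 in PM2.5 oocytes (31.6%), 11 in filtered-air oocytes (28.9%), 15 in PM2.5 cumulus cells (39.5%) and 12 in filtered-air cumulus cells (31.6%). Over all genes of the table the share was 16.4% to 20.2%. The map of all genes and libraries shows a block of genes for each tissue, and the block at the bottom that was low throughout.

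**Figure D1:**
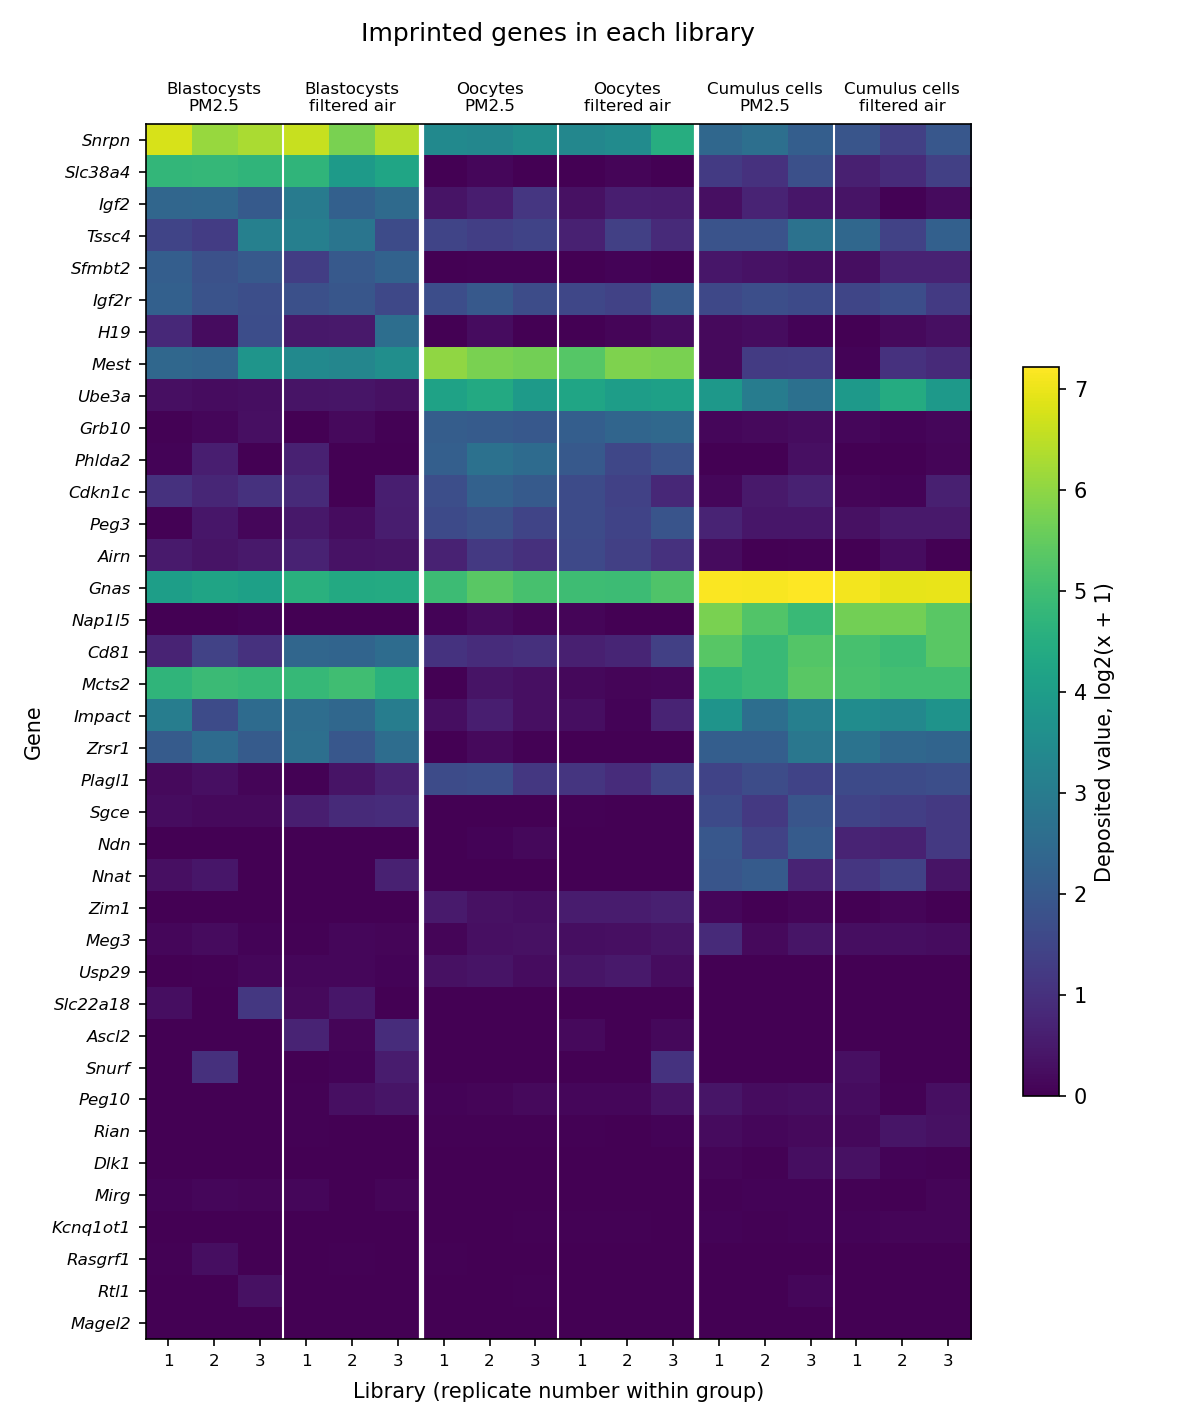
Level of each of the 38 imprinted genes (rows) in each of the 18 libraries (columns), as the deposited log2(x + 1) value. Blastocyst, oocyte and cumulus libraries follow each other, PM2.5 left of filtered air in each, and rows are ordered by the tissue with the highest mean, with the 14 genes that stayed under 1 in every group at the bottom.

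Slc38a4, Snrpn and Igf2 were highest in blastocysts. Slc38a4 (chromosome 15, 96994816 to 97055956) encodes an amino acid transporter and is one of the genes whose maternal copy is known to be silenced by a histone mark in place of DNA methylation. In blastocysts, Slc38a4 had levels of 4.79, 4.81 and 4.73 with PM2.5 and 4.72, 3.94 and 4.24 in filtered air. Oocytes had Slc38a4 levels of 0.00, 0.13 and 0.00 with PM2.5 and 0.02, 0.09 and 0.00 in filtered air. Cumulus cells had Slc38a4 levels of 1.24, 1.04 and 1.76 with PM2.5 and 0.64, 0.90 and 1.36 in filtered air. The 3 tissues did not overlap, with blastocysts high and oocytes at or near 0. The other gene of that kind, Sfmbt2, which encodes a Polycomb group protein, had levels of 1.30 to 2.28 in blastocysts, 0.00 to 0.06 in oocytes and 0.26 to 0.69 in cumulus cells.

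Snrpn (chromosome 7, 59982495 to 60450177) encodes SmN, a core protein of the splicing machinery. Its blastocyst levels were 6.78, 6.11 and 6.29 with PM2.5 and 6.62, 5.75 and 6.41 in filtered air. Oocytes had Snrpn levels of 3.42, 3.33 and 3.56 with PM2.5 and 3.34, 3.49 and 4.49 in filtered air. Cumulus levels of Snrpn were 2.42, 2.63 and 2.16 with PM2.5 and 1.91, 1.37 and 1.96 in filtered air. Every blastocyst library thus lay above every oocyte library, and every oocyte library above every cumulus library. The highest oocyte value came from the filtered-air library that stood apart. Snurf, the reading frame at the start of the same transcript, and the long RNA Snhg14 share exons or span with Snrpn, and the strand of the counting is not given, so the division of reads among them is uncertain.

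At the H19 and Igf2 pair, marked by methylation of the paternal copy, Igf2 encodes a growth factor and H19 a noncoding RNA. Igf2 had blastocyst levels of 2.39, 2.41 and 2.06 with PM2.5 and 3.01, 2.21 and 2.51 in filtered air, against 0.31 to 1.15 in the 6 oocyte libraries and 0.06 to 0.72 in the 6 cumulus libraries. Blastocysts did not overlap the other tissues. H19 was less even, with blastocyst levels of 0.82, 0.23 and 1.71 with PM2.5 and 0.47, 0.51 and 2.62 in filtered air. The oocyte and cumulus libraries had H19 levels of at most 0.28. Igf2r, the receptor that removes Igf2 from the cell surface, had mean levels of 1.92 in PM2.5 and 1.75 in filtered-air blastocysts, 1.80 and 1.66 in those oocytes, and 1.63 and 1.49 in those cumulus cells. Its libraries overlapped between all tissues. Airn, the noncoding RNA that runs against Igf2r and overlaps it, was highest in oocytes, with mean levels of 0.97 ± 0.26 with PM2.5 and 1.34 ± 0.29 in filtered air (SD, n = 3 each).

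Mest was highest in oocytes. Mest (chromosome 6, 30733506 to 30748466) encodes a protein of the alpha/beta hydrolase fold family. Oocytes had Mest levels of 6.02, 5.77 and 5.68 with PM2.5 and 5.31, 5.83 and 5.78 in filtered air. Blastocyst levels of Mest were 2.40, 2.33 and 3.77 with PM2.5 and 3.42, 3.31 and 3.57 in filtered air. In cumulus cells, Mest had levels of 0.17, 1.26 and 1.27 with PM2.5 and 0.07, 1.02 and 0.87 in filtered air. All 3 tissues were apart. In cumulus cells, Gdf9, an oocyte growth factor, had levels of 3.42, 4.14 and 4.09 with PM2.5 and 3.16, 3.56 and 3.56 in filtered air, so its lowest library in each group was also the lowest for Mest, and the part of oocyte RNA in the cumulus value of Mest was not tested.

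Ube3a (chromosome 7, 59228750 to 59310837) encodes a ubiquitin ligase that is imprinted in neurons and read from both copies in most other tissues. Blastocyst levels of Ube3a were 0.30, 0.24 and 0.28 with PM2.5 and 0.39, 0.42 and 0.31 in filtered air. Oocytes had Ube3a levels of 4.17, 4.38 and 3.92 with PM2.5 and 4.26, 4.02 and 4.12 in filtered air. Cumulus levels of Ube3a were 3.84, 3.04 and 2.65 with PM2.5 and 3.87, 4.43 and 3.89 in filtered air. Blastocysts were far below both other tissues, which overlapped in filtered air but not with PM2.5.

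Maternally expressed genes that limit growth were among the oocyte genes at lower levels. Cdkn1c, an inhibitor of cyclin-dependent kinases, had oocyte levels of 1.74, 2.24 and 2.06 with PM2.5 and 1.66, 1.38 and 0.81 in filtered air, and the 2 groups did not overlap, as for 14.2% of all genes with a mean of at least 1 in oocytes. Phlda2, which restrains growth of the placenta, had oocyte levels of 2.20, 2.70 and 2.53 with PM2.5 and 2.02, 1.53 and 1.84 in filtered air, again without overlap. Grb10, an adaptor that dampens insulin and growth factor signalling, had oocyte levels of 2.12, 2.07 and 1.99 with PM2.5 and 2.15, 2.36 and 2.44 in filtered air, and every PM2.5 library was below every filtered-air library. These 3 genes were described after their values were seen. The paternally expressed zinc finger gene Peg3 had mean oocyte levels of 1.63 with PM2.5 and 1.66 in filtered air.

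Of the 24 genes with a group mean of at least 1, cumulus cells had the highest mean for 11 with PM2.5 and 10 in filtered air. Oocytes had it for 7 with PM2.5 and 7 in filtered air, and blastocysts for 6 and 7. The same count was not made over all genes, so no lean of the imprinted genes is read from it. Nap1l5 (chromosome 6, 58905233 to 58907126), a retrogene of the nucleosome assembly protein family inside Herc3, was near absent outside cumulus cells. Its cumulus levels were 5.77, 5.26 and 4.90 with PM2.5 and 5.67, 5.67 and 5.37 in filtered air. Oocytes had Nap1l5 levels of 0.06, 0.20 and 0.11 with PM2.5 and 0.09, 0.00 and 0.00 in filtered air. In blastocysts, Nap1l5 was listed at 0 in 5 of 6 libraries, the exception being PM2.5 replicate 3 with a level of 0.07.

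Cd81 (chromosome 7, 143052750 to 143067930) encodes a tetraspanin of the cell membrane and is known as maternally expressed in the placenta. Blastocyst levels of Cd81 were 0.73, 1.42 and 1.02 with PM2.5 and 2.39, 2.32 and 2.55 in filtered air. Oocytes had Cd81 levels of 1.07, 0.93 and 1.01 with PM2.5 and 0.64, 0.74 and 1.37 in filtered air. Cumulus levels of Cd81 were 5.35, 4.89 and 5.29 with PM2.5 and 5.13, 4.96 and 5.38 in filtered air. Cumulus cells were high in every library, and the PM2.5 blastocysts lay at the oocyte level while the filtered-air blastocysts lay above it. Its neighbour Tssc4, a gene for a splicing factor, was scattered: its blastocyst levels were 1.48, 1.28 and 3.15 with PM2.5 and 3.10, 2.81 and 1.66 in filtered air.

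Gnas (chromosome 2, 174284320 to 174346744) encodes the stimulatory G protein alpha subunit and several isoforms with different imprints, which the table sums. Blastocysts had Gnas levels of 4.05, 4.23 and 4.11 with PM2.5 and 4.59, 4.39 and 4.42 in filtered air. Oocyte levels of Gnas were 4.94, 5.38 and 5.12 with PM2.5 and 4.97, 4.94 and 5.22 in filtered air. Cumulus cells had Gnas levels of 7.19, 7.14 and 7.22 with PM2.5 and 7.10, 6.95 and 6.99 in filtered air. The 3 tissues were apart, and the PM2.5 libraries were below the filtered-air ones in blastocysts and above them in cumulus cells.

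Mcts2, Zrsr1 and Impact shared another order, present in blastocysts and cumulus cells and low in oocytes. Mcts2 (chromosome 2, 152687148 to 152687946) lies inside H13 and is a retrogene copy of the translation factor gene Mcts1. Blastocyst levels of Mcts2 were 4.74, 4.93 and 4.83 with PM2.5 and 4.84, 5.01 and 4.61 in filtered air. Oocyte levels were 0.00, 0.38 and 0.31 with PM2.5 and 0.17, 0.11 and 0.13 in filtered air, and cumulus levels were 4.72, 4.89 and 5.37 with PM2.5 and 5.14, 5.03 and 5.05 in filtered air. The level of Mcts1 was close to that of Mcts2 in every library, with Mcts2 minus Mcts1 between -0.17 and 0.33 in blastocysts, -0.56 and 0.11 in oocytes and -0.50 and 0.37 in cumulus cells. The copies are near-identical and reads may be divided between them by the counting, so the level of Mcts2 itself is uncertain. H13, the gene around it, had mean oocyte levels of 2.34 with PM2.5 and 2.53 in filtered air, so the low oocyte value was not shared by its host.

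Zrsr1 (chromosome 11, 22972005 to 22976496) lies inside Commd1, encodes a splicing factor and is a retrogene copy of Zrsr2. Its levels were 2.07, 2.52 and 2.07 in PM2.5 blastocysts and 2.63, 1.95 and 2.58 in filtered-air blastocysts. No oocyte library exceeded a Zrsr1 level of 0.19, and the cumulus libraries had 2.15, 2.16 and 2.85 with PM2.5 and 2.74, 2.41 and 2.32 in filtered air. Its parent gene Zrsr2 was present in oocytes, with mean levels of 2.35 with PM2.5 and 2.44 in filtered air. Impact (chromosome 18, 12954690 to 12992950), an inhibitor of the stress kinase Gcn2, had blastocyst levels of 3.06, 1.65 and 2.53 with PM2.5 and 2.58, 2.40 and 3.06 in filtered air. Oocytes had Impact levels of 0.26, 0.60 and 0.30 with PM2.5 and 0.27, 0.07 and 0.73 in filtered air. Cumulus levels of Impact were 3.73, 2.62 and 3.12 with PM2.5 and 3.50, 3.38 and 3.71 in filtered air. Oocytes were below both other tissues in every library for all 3 genes.

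**Figure D2:**
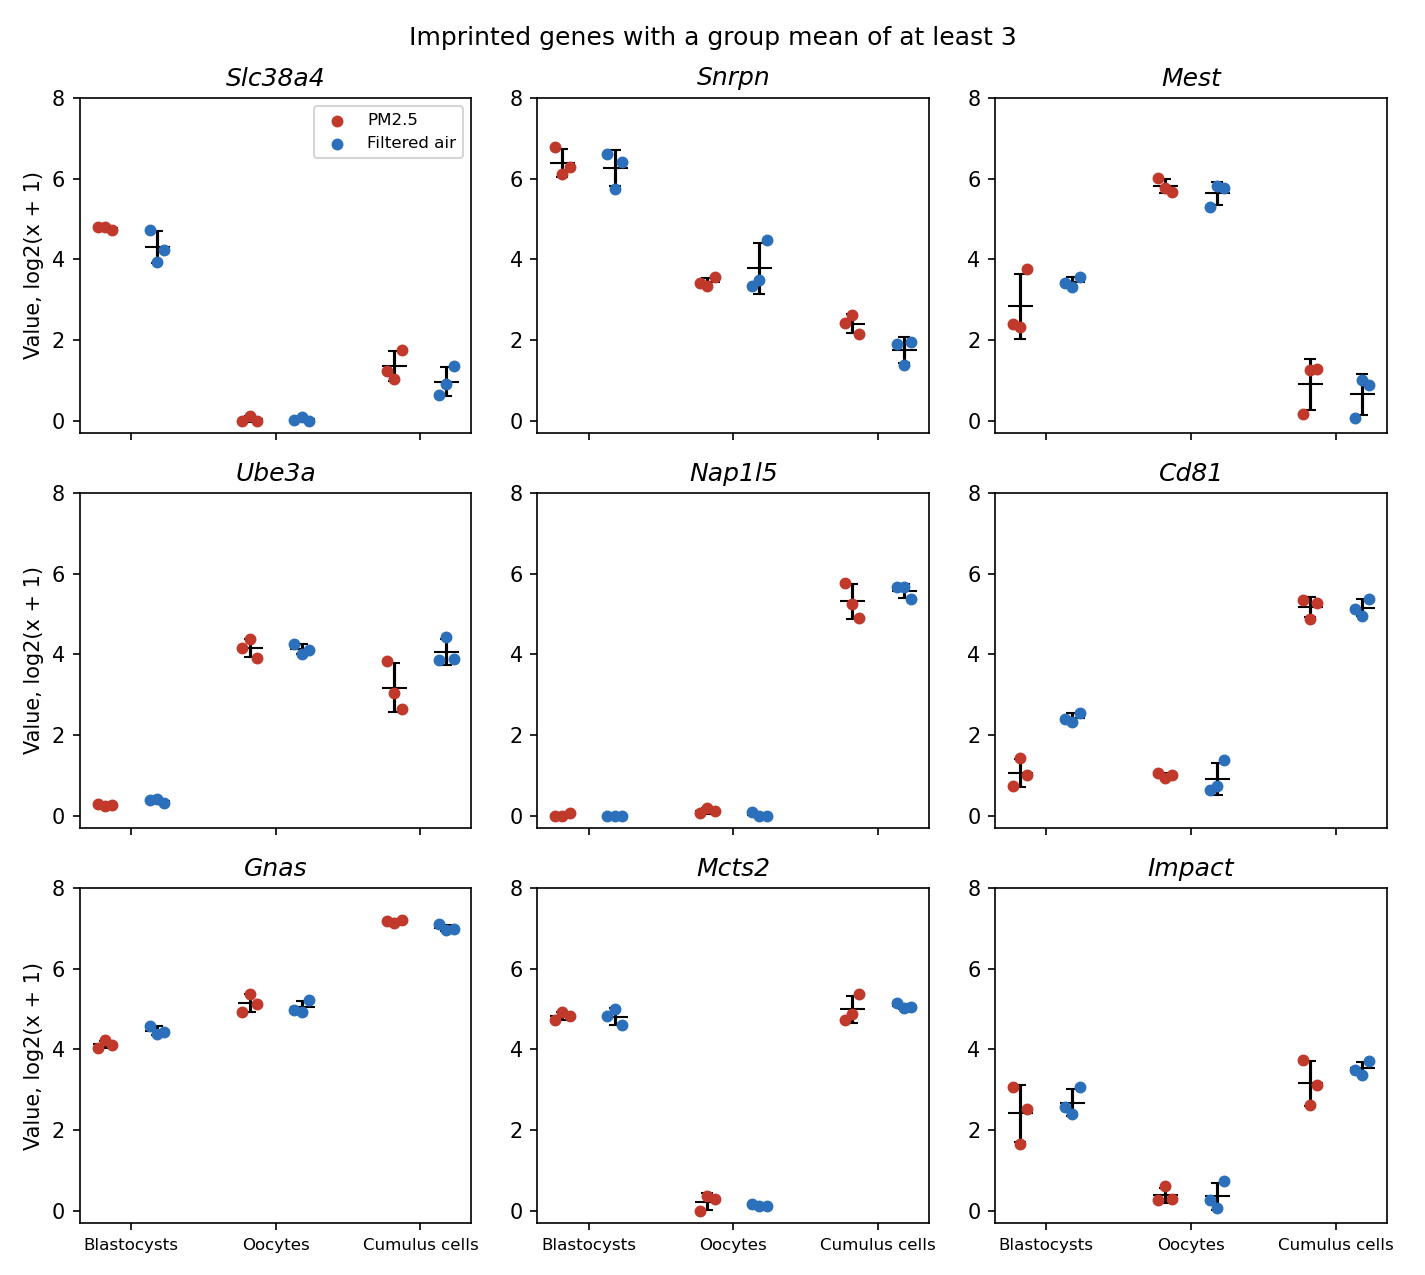
Level, as the deposited log2(x + 1) value, of the 9 imprinted genes that reached a group mean of 3, by tissue, with PM2.5 libraries (red) left of filtered-air libraries (blue). Points are libraries and black bars the mean ± SD of 3, and Ube3a is near 0 in blastocysts, Nap1l5 near 0 outside cumulus cells and Mcts2 near 0 in oocytes.

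Several paternally expressed genes with low levels were seen mainly in cumulus cells. Ndn, a member of the MAGE family, had cumulus levels of 1.97, 1.43 and 2.07 with PM2.5 and 0.72, 0.66 and 1.21 in filtered air, against 0.00 in all blastocyst libraries and at most 0.16 in oocytes. Sgce, which encodes epsilon-sarcoglycan, had mean cumulus levels of 1.57 ± 0.36 with PM2.5 and 1.33 ± 0.12 in filtered air, and Nnat, which encodes a small membrane protein and lies inside Blcap, 1.56 ± 0.74 and 0.98 ± 0.54 in the same groups (SD, n = 3 each). Sgce was also seen in blastocysts, with levels of 0.23, 0.19 and 0.20 with PM2.5 and 0.61, 0.86 and 0.92 in filtered air. Nnat did not exceed 0.66 in blastocysts. Plagl1, a zinc finger gene, had mean cumulus levels of 1.52 with PM2.5 and 1.68 in filtered air, close to the oocyte means of 1.51 and 1.15. Peg10, a gene derived from a retrotransposon that is next to Sgce, did not exceed a level of 0.41.

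The 14 genes that stayed under 1 in every group were Kcnq1ot1, Slc22a18, Ascl2, Zim1, Usp29, Snurf, Magel2, Peg10, Meg3, Rian, Mirg, Dlk1, Rtl1 and Rasgrf1. Their highest single value was a level of 1.16, for the transporter gene Slc22a18 in PM2.5 blastocyst replicate 3, and 137 of their 252 values were above 0. Magel2 was listed at 0 in all 18 libraries. The cluster of Dlk1, Meg3, Rtl1, Rian and Mirg, marked on the paternal copy, did not exceed a level of 0.87 in any tissue. Usp29 and Zim1, of the Peg3 cluster, did not exceed 0.49 and 0.65.

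Tissues were compared with limma on the 10905 genes with a mean level of at least 1 over the 18 libraries, in the PM2.5 and the filtered-air libraries apart. Of the imprinted genes 14 were tested and 24 were too low. Of those 14, 4 had a mean of at least 1 in all 3 tissues, 8 in 2 tissues, and 2 (Igf2 and Nap1l5) in 1 tissue only, which carried them through the filter. Igf2 and Nap1l5 are therefore left to the levels above and out of the counts. The filter used the mean over all 18 libraries, in which a high tissue weighs most. Slc38a4, with means of 4.54 in blastocysts, 0.04 in oocytes and 1.16 in cumulus cells, also owed much of that mean to 1 tissue. So did Cd81, with 1.74, 0.96 and 5.16 in the same order, and both stay among the 12 counted. With PM2.5, 5 of the other 12 were higher and 4 lower in blastocysts than in oocytes, 3 were higher and 4 lower in blastocysts than in cumulus cells, and 3 were higher and 6 lower in oocytes than in cumulus cells. In filtered air the counts were 7 higher and 4 lower, 3 higher and 5 lower, and 2 higher and 8 lower, in the same order of comparisons. Over all genes tested with PM2.5, 84% passed (50.8% higher, 33.2% lower), 63.1% passed (32.4% higher, 30.7% lower) and 83.8% passed (33.6% higher, 50.2% lower), in that order. In filtered air the shares were 84% (50.3% higher, 33.6% lower), 63.9% (34.6% higher, 29.3% lower) and 83.4% (33.6% higher, 49.8% lower). Most genes tested thus differed between tissues, and nothing particular to the imprinted genes is read from their counts.

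All tested genes had a median difference of 0.61 with PM2.5 and 0.59 in filtered air for blastocysts minus oocytes, 0.00 and 0.08 for blastocysts minus cumulus cells, and -0.57 and -0.53 for oocytes minus cumulus cells. For the 12 imprinted genes the medians were 0.33 and 1.53, -0.17 and -0.18, and -1.01 and -0.997. The largest differences of single genes were far from these shifts. Mcts2 was higher in blastocysts than in oocytes by 4.61 (SE 0.19, adjusted p = 4.26e-09) with PM2.5 and by 4.68 (SE 0.14, adjusted p = 8.6e-10) in filtered air. Slc38a4 was higher in blastocysts than in oocytes by 4.73 with PM2.5 and by 4.26 in filtered air. Blastocysts carried much of the mean by which Slc38a4 entered the test, so no p-value is given for this difference. Ube3a fell by 3.89 (SE 0.27, adjusted p = 2.35e-07) with PM2.5 and by 3.76 (SE 0.17, adjusted p = 1.73e-08) in filtered air in blastocysts relative to oocytes.

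In oocytes relative to cumulus cells, Mest was higher by 4.92 (SE 0.40, adjusted p = 9.19e-07) with PM2.5 and by 4.98 (SE 0.25, adjusted p = 3.74e-08) in filtered air. Among the 12 genes, Mest and Snrpn were higher in oocytes than in cumulus cells with both exposures, while Cd81, Gnas, Impact, Zrsr1, Mcts2 and Slc38a4 were lower with both. The Slc38a4 call in filtered air was lost at a pseudocount of 4 (adjusted p = 0.0962). Without the filter on the mean, genes of lower level also entered the test. Ndn, Sgce and Nnat among them lay lower in oocytes, by the levels given above, and Grb10 and Phlda2 lay higher. Grb10 differed by 1.88 with PM2.5 and 2.21 in filtered air, and Phlda2 by 2.38 and 1.76 in the same groups. All of these genes were named from their levels, so no p-value is given for them. Snrpn differed by 1.04 (SE 0.19, adjusted p = 0.000563) with PM2.5 and 2.03 (SE 0.33, adjusted p = 0.000254) in filtered air, and by 1.67 (adjusted p = 0.000534) in filtered air without the oocyte library that stood apart. Blastocysts were above cumulus cells in Snrpn, by 3.99 (SE 0.19, adjusted p = 5.58e-08) with PM2.5 and 4.52 (SE 0.33, adjusted p = 1.64e-06) in filtered air, and also in Slc38a4 and Mest with both exposures. Blastocysts were below cumulus cells in Cd81, by -4.12 (SE 0.20, adjusted p = 6.17e-08) with PM2.5 and -2.73 (SE 0.21, adjusted p = 2.24e-06) in filtered air. The other genes lower in blastocysts than in cumulus cells with both exposures were Ube3a (-2.91 with PM2.5 and -3.69 in filtered air), Gnas (-3.06 and -2.55) and Plagl1 (-1.33 and -1.30).

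The plot of tissue differences shows the PM2.5 and filtered-air fits side by side. Of the 12 genes, both fits passed in the same direction for 9 in blastocysts against oocytes, 7 in blastocysts against cumulus cells and 8 in oocytes against cumulus cells, and 0 genes passed in opposite directions. The share of all genes passing both fits was not counted. As 63.1% to 84% of all genes tested passed in a single fit, nothing particular to the imprinted genes is read from this agreement. Igf2r did not pass in any of the 6 tests. Cd81 in blastocysts minus oocytes passed in filtered air (1.5, SE 0.21, adjusted p = 8.02e-05) and not with PM2.5 (0.05, SE 0.20, adjusted p = 0.815). Ube3a in oocytes minus cumulus cells passed with PM2.5 (0.98, SE 0.27, adjusted p = 0.00629) and not in filtered air (0.07, SE 0.17, adjusted p = 0.720). Tssc4 (blastocysts minus oocytes and oocytes minus cumulus cells), Plagl1 (oocytes minus cumulus cells) and Impact (blastocysts minus cumulus cells) also passed in filtered air and not with PM2.5. These filtered-air calls were lost under at least 1 other setting, with an adjusted p of 0.0835 for Tssc4 in blastocysts minus oocytes and 0.583 in oocytes minus cumulus cells under quantile normalization, 0.0911 for Plagl1 and 0.0606 for Impact at a pseudocount of 0.25. A call in 1 exposure alone does not show that the exposures differ, which the tests further below address.

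**Figure D3:**
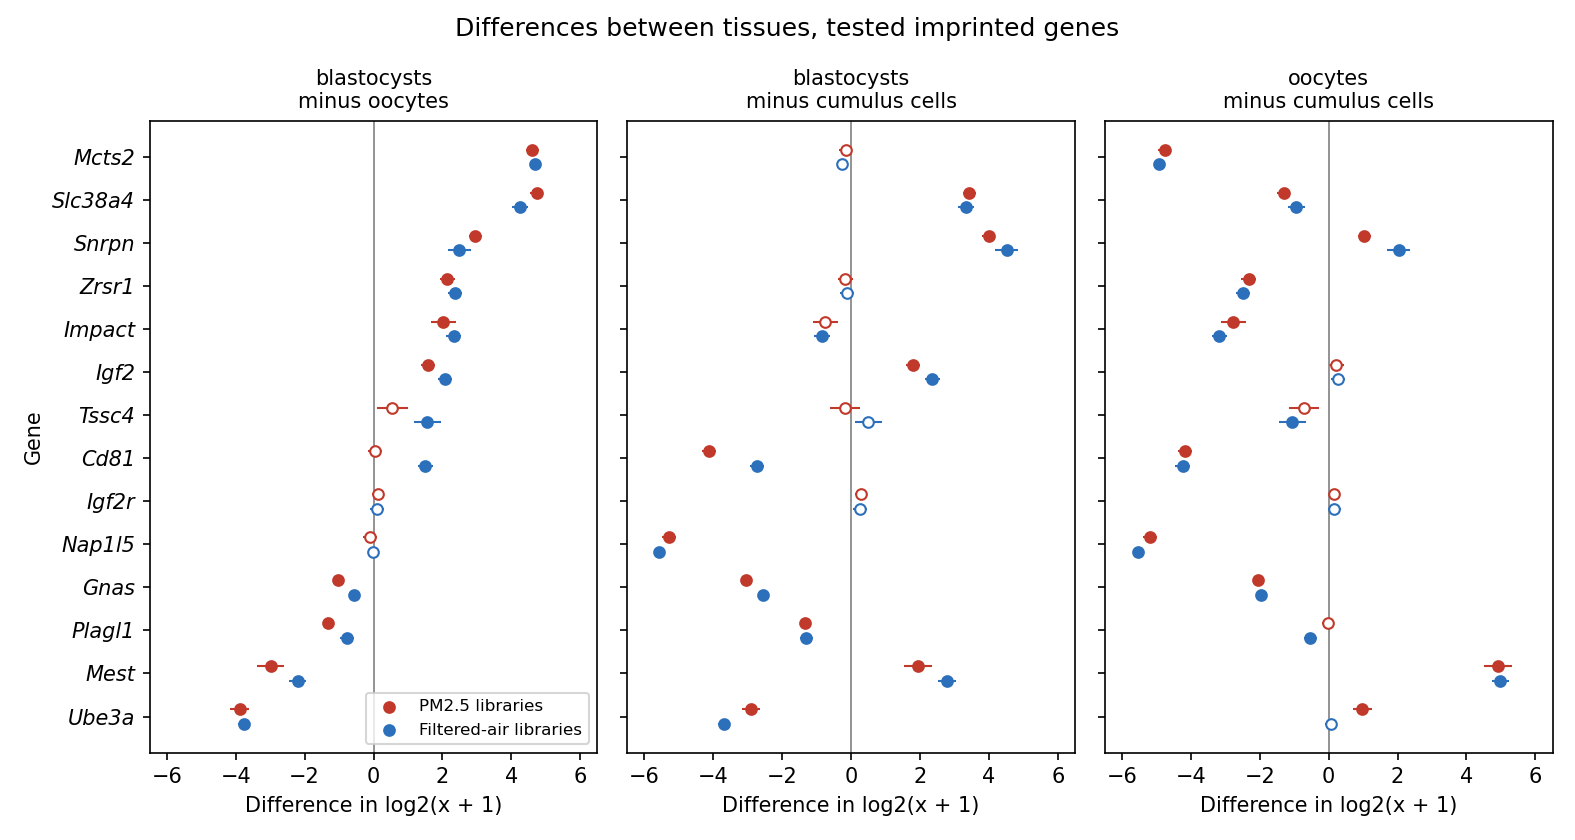
Difference in level between tissues, in log2(x + 1) units, for the 14 imprinted genes tested, in PM2.5 libraries (red, above) and filtered-air libraries (blue, below). Igf2 and Nap1l5 had a mean of at least 1 in 1 tissue only. Bars are standard errors, filled points passed an adjusted p of 0.05, and Cd81 in blastocysts minus oocytes and Ube3a in oocytes minus cumulus cells are filled in 1 exposure only.

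PM2.5 was compared with filtered air within each tissue, to ask whether the exposure goes with a change in the total level of imprinted genes. Genes with a mean level of at least 3 in the tissue were tested, and 0 imprinted genes passed in any tissue. In blastocysts 5 of the 38 were tested, and over all genes 0% of 4834 passed, with 3.95% under an unadjusted p of 0.05. In oocytes 4 were tested, with 0.221% of 4080 genes passing and 8.33% under an unadjusted p of 0.05. In cumulus cells 6 were tested, with 0.167% of 4780 genes passing and 23.3% under an unadjusted p of 0.05. Of the imprinted genes tested, 1 in blastocysts, 0 in oocytes and 1 in cumulus cells had an unadjusted p under 0.05. The median difference of those tested was 0.02 in blastocysts, 0.07 in oocytes and -0.17 in cumulus cells, against -0.01, -0.04 and 0.09 over all genes tested.

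In blastocysts, Slc38a4 had the smallest p, at a difference of 0.48 (SE 0.21, unadjusted p = 0.0494, adjusted p = 0.998). Its groups did not overlap, but by only a little, with a lowest PM2.5 level of 4.73 and a highest filtered-air level of 4.72. Leaving out filtered-air replicate 2 gave 0.30, and leaving out replicate 1 of that group gave 0.69. Gnas differed by -0.34 (SE 0.17, adjusted p = 0.998), also without overlap, where 8.52% of all genes tested did not overlap. Mest differed by -0.60 (SE 0.36, adjusted p = 0.998), with PM2.5 replicate 3 above all filtered-air libraries. The Mest difference was -1.07 without that library, -0.35 without PM2.5 replicate 2 and -0.38 without PM2.5 replicate 1. Snrpn differed by 0.13 (SE 0.25, adjusted p = 0.998). Without replicate 1 of both exposures, the pair that stood apart, the differences were 0.68 for Slc38a4, -0.23 for Gnas, -0.39 for Mest and 0.12 for Snrpn, and 0 imprinted genes passed. That setting was chosen after seeing the data.

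In oocytes, the groups of the 4 tested genes overlapped. Snrpn differed by -0.34 (SE 0.29, adjusted p = 0.761), and by 0.02 without filtered-air replicate 3, the library that stood apart. Mest differed by 0.18 (SE 0.17, adjusted p = 0.767), Gnas by 0.10 (SE 0.15, adjusted p = 0.851) and Ube3a by 0.03 (SE 0.15, adjusted p = 0.973). Without PM2.5 replicate 2 the difference of Gnas was -0.01 and that of Ube3a -0.09.

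In cumulus cells, Ube3a had the smallest p, at a difference of -0.88 (SE 0.31, unadjusted p = 0.0227, adjusted p = 0.186). Its PM2.5 libraries, at 3.84, 3.04 and 2.65, all lay below the filtered-air ones, but replicate 1 by only a little. Without PM2.5 replicate 1 the difference was -1.21 (adjusted p = 0.0409), and over the other libraries left out in turn the adjusted p reached 0.474. Gnas differed by 0.17 (SE 0.11, adjusted p = 0.350), also without overlap, where 26.3% of all genes tested did not overlap. Under quantile normalization the Gnas difference was -0.01. Impact differed by -0.37 (SE 0.28, adjusted p = 0.404) and Nap1l5 by -0.26 (SE 0.23, adjusted p = 0.470), and the groups of both overlapped. The difference of Impact was -0.66 without PM2.5 replicate 1 and -0.0995 without PM2.5 replicate 2. That of Nap1l5 was -0.49 without PM2.5 replicate 1 and -0.0553 without PM2.5 replicate 3.

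With the filter lowered to a mean level of 1, 13 of the 38 genes were tested in blastocysts, 12 in oocytes and 15 in cumulus cells, and again 0 passed, against 0.0199%, 0.197% and 0.0763% of all genes tested. The following genes were named after their values were seen. In blastocysts Cd81 had the largest difference, -1.36 (SE 0.25, unadjusted p = 0.000529, adjusted p = 0.664), with mean levels of 1.06 ± 0.35 with PM2.5 and 2.42 ± 0.12 in filtered air (SD, n = 3 each), and its groups were far apart. The Cd81 difference was -1.55 to -1.20 with 1 library left out and -1.21 without replicate 1 of both exposures. In oocytes Phlda2 differed by 0.68 (SE 0.21, unadjusted p = 0.0123, adjusted p = 0.581) and Cdkn1c by 0.73 (SE 0.25, unadjusted p = 0.022, adjusted p = 0.664). In cumulus cells Ndn differed by 0.96 (SE 0.24, unadjusted p = 0.0053, adjusted p = 0.262) and Snrpn by 0.65 (SE 0.22, unadjusted p = 0.0205, adjusted p = 0.268). Groups did not overlap in 3 of 13 imprinted genes in blastocysts, 3 of 12 in oocytes and 4 of 15 in cumulus cells, against 9.37%, 14.2% and 22.1% of all genes tested.

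Several marker lists had summed values or mean levels apart between exposures in cumulus cells, beside the Ndn, Ube3a and Gnas differences. Over all cumulus genes, groups did not overlap for 22.1% of those with a mean of at least 1 and 26.3% of those with a mean of at least 3. The lists were not filtered by level, and a count without overlap near those shares is not read as a difference of the list. The 10 granulosa and cumulus genes had summed linear values (the sum of x) of 810 to 957 with PM2.5 and 675 to 769 in filtered air, with 2 of 10 higher without overlap and 0 lower. The 9 genes of the stromal and smooth muscle list had summed linear values of 5.29 to 6.70 with PM2.5 and 3.08 to 3.69 in filtered air, with 4 of 9 higher without overlap and 0 lower. Lum, a marker of that list, was listed at 0 in all cumulus libraries. Of 5 oviduct epithelium genes 1 was higher without overlap, and the summed linear values were 0.956 to 2.83 with PM2.5 and 0 to 0.222 in filtered air. The summed values of the 6 trophectoderm genes were 58.3 to 81.2 with PM2.5 and 46.2 to 56.8 in filtered air, with 1 of 6 higher without overlap. The 5 theca and luteal genes had 179 to 274 with PM2.5 and 151 to 186 in filtered air, with 1 of 5 higher without overlap, and these sums overlapped. For the 8 leukocyte genes the sums overlapped, at 70.9 to 145 with PM2.5 and 76.9 to 111 in filtered air, while the mean level was 1.75 to 2.14 with PM2.5 and 2.15 to 2.36 in filtered air, with 1 gene higher and 1 lower without overlap. The part of these lists in the cumulus results was not tested. In blastocysts, beside Cd81 and Slc38a4, the 6 trophectoderm genes had summed linear values of 1468 to 2233 with PM2.5 and 1657 to 2628 in filtered air. The 6 inner cell mass genes had 228 to 282 and 250 to 278 in those groups. Both lists overlapped between exposures.

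**Figure D4:**
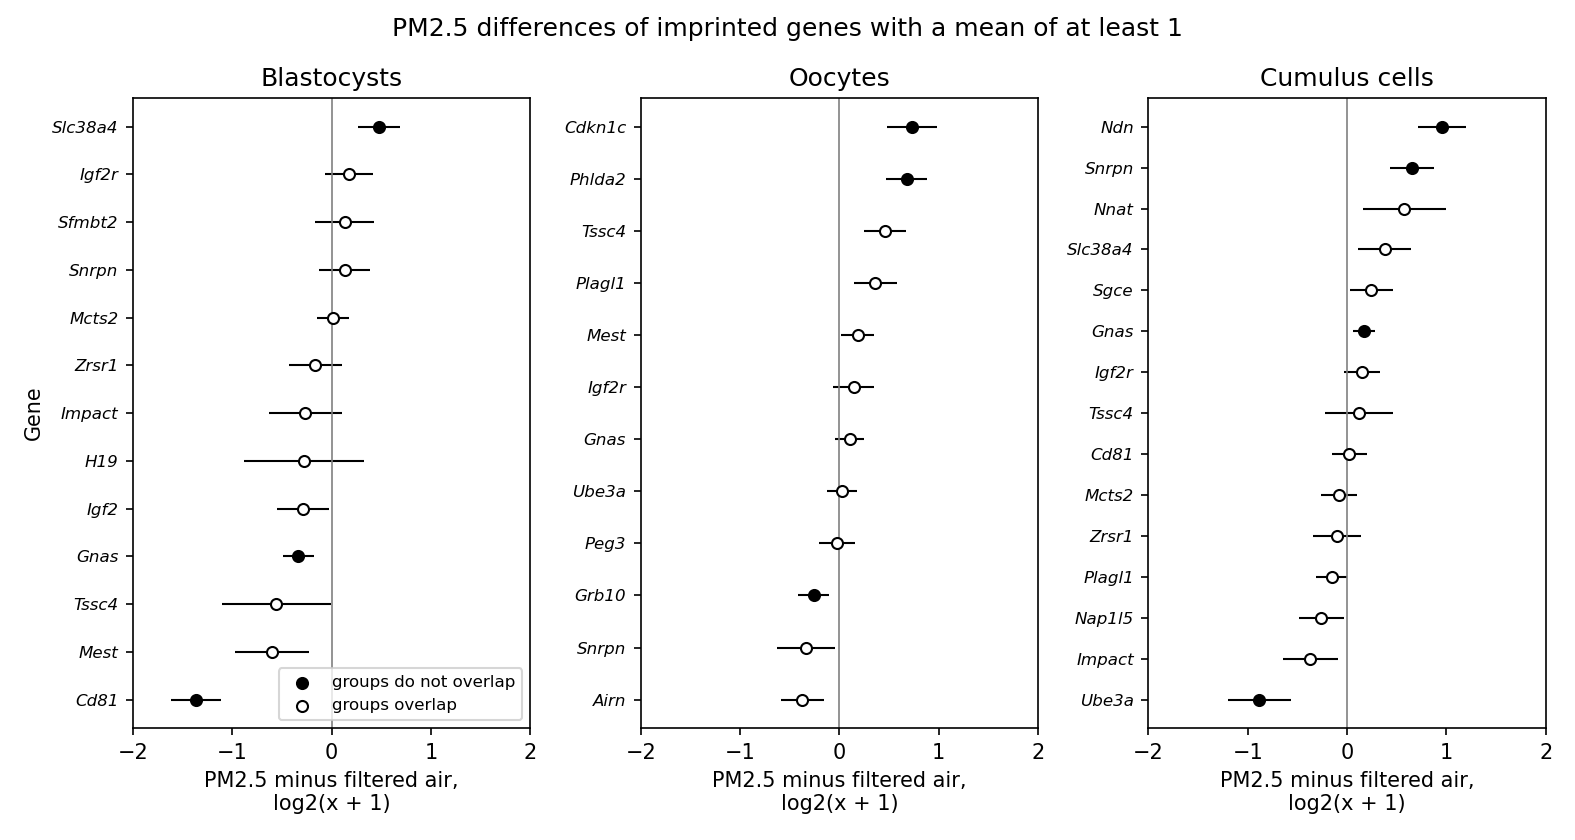
Difference in level, PM2.5 minus filtered air in log2(x + 1) units, of the imprinted genes with a mean level of at least 1 in each tissue, with standard errors as bars. Filled points mark genes whose 3 PM2.5 and 3 filtered-air libraries did not overlap, among them Cd81 in blastocysts at -1.36, and none passed an adjusted p of 0.05.

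Whether the PM2.5 difference itself differed between tissues was tested in a fit of all 18 libraries over the same 10905 genes. Of the 14 imprinted genes 0 passed, against 0.055% of all genes tested for blastocysts minus oocytes, 0.229% for blastocysts minus cumulus cells and 0.312% for oocytes minus cumulus cells. An unadjusted p under 0.05 was reached by 3, 3 and 2 of the 14, against 6.69%, 14.1% and 11.3% of all genes tested. For Cd81 the PM2.5 difference was lower in blastocysts than in oocytes by a difference of -1.45 (SE 0.30, adjusted p = 0.170) and lower than in cumulus cells by -1.39 (SE 0.30, adjusted p = 0.0776). Without filtered-air oocyte replicate 3 the adjusted p for blastocysts minus oocytes was 0.0261, and without PM2.5 blastocyst replicate 2 that for blastocysts minus cumulus cells was 0.0479. With other single libraries left out these adjusted p-values of Cd81 reached 0.317 and 0.176. For Ube3a the values were 0.78 (SE 0.33, adjusted p = 0.303) in blastocysts minus cumulus cells and 0.91 (SE 0.33, adjusted p = 0.314) in oocytes minus cumulus cells. Without PM2.5 cumulus replicate 1 the adjusted p-values of Ube3a were 0.0401 and 0.0347, and with other single libraries left out they reached 0.581 and 0.612. Gnas had -0.51 (SE 0.18, adjusted p = 0.222) in blastocysts minus cumulus cells, and Snrpn -0.99 (SE 0.41, adjusted p = 0.367) in oocytes minus cumulus cells.

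The RNA of 25 genes whose proteins are known to lay down, read or keep imprints was followed in the same way. Between tissues 24 of them were tested. With PM2.5, 6 were higher and 15 lower in blastocysts than in oocytes, 11 higher and 3 lower in blastocysts than in cumulus cells, and 19 higher and 2 lower in oocytes than in cumulus cells. In filtered air the counts were 6 and 17, 11 and 6, and 19 and 3. Over all genes tested with PM2.5 the shares were 50.8% higher and 33.2% lower, 32.4% and 30.7%, and 33.6% and 50.2%, and in filtered air 50.3% and 33.6%, 34.6% and 29.3%, and 33.6% and 49.8%. The median difference of the 24 in oocytes minus cumulus cells was 2.52 with PM2.5 and 2.42 in filtered air, against -0.57 and -0.53 over all genes tested. This list was not screened for genes that 1 high tissue carried through the filter, and Nlrp5 in it is also an oocyte marker used above. No trait of the regulators as a set is therefore read from these counts and medians. Dppa3, which shields maternal methylation in the zygote, had mean levels of 11.10 and 11.04 in PM2.5 and filtered-air blastocysts, 10.27 and 10.46 in those oocytes, and 3.24 and 2.73 in those cumulus cells.

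Zfp57, whose protein reads the hexanucleotide shown above, had oocyte levels of 6.05, 4.28 and 5.93 with PM2.5 and 6.24, 6.24 and 6.68 in filtered air. The groups did not overlap, as for 15.3% of all genes tested in oocytes. PM2.5 replicate 2 was the lowest, and the Zfp57 difference was -0.97 (SE 0.44, unadjusted p = 0.0623, adjusted p = 0.605), or -0.40 without that library (adjusted p = 0.761). Mean levels of Zfp57 were 1.11 with PM2.5 and 1.07 in filtered air in blastocysts, and 0.54 and 0.40 in cumulus cells. Suz12, a Polycomb subunit, was low in the same oocyte library, with levels of 7.40, 5.55 and 7.33 with PM2.5 and 7.62, 7.63 and 7.46 in filtered air. The oocyte difference of Suz12 was -0.81 (adjusted p = 0.654), or -0.20 without PM2.5 replicate 2. In cumulus cells Suz12 had levels of 4.62, 4.17 and 3.81 with PM2.5 and 4.63, 4.92 and 4.90 in filtered air. The difference was -0.62 (SE 0.22, unadjusted p = 0.022, adjusted p = 0.185), or -0.83 without PM2.5 replicate 1 (adjusted p = 0.0414). Over the other cumulus libraries left out in turn the adjusted p of Suz12 reached 0.474. Dnmt3l, the cofactor of methylation in the oocyte, differed by -0.57 in oocytes (SE 0.26, adjusted p = 0.601), and Dnmt1, the maintenance methyltransferase, by 0.29 (SE 0.14, adjusted p = 0.631). Of the regulators tested between exposures, 13 in blastocysts, 18 in oocytes and 9 in cumulus cells, 0 passed, and 0, 0 and 1 had an unadjusted p under 0.05, against 3.95%, 8.33% and 23.3% of all genes tested.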

How the data were processed

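The authors deposited 1 table of log2 values, log2(x + 1) of a normalized count, with 18 library columns. The submitters' processing notes name mm10, DESeq 1.22.1, Cuffnorm and FastQC without a role or an order. The aligner, annotation and strand were not given in the sources used here. Per the labels' protocols, cells were lysed and reverse transcribed directly, tailed with poly(A) and amplified. That x may be scaled by length rests on genes with 1 transcript that were above 0 in 1 library. Over 573 of them, log x fell with log length with a slope of -0.47 (SE 0.081), which does not settle the scaling. Depth is unknown, so no intervals or count tests were made.

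Groups were taken from the labels. Members and lists were chosen with earlier results of these data known. The tests were limma 3.58.1 in R 4.3.3 (lmFit, eBayes with a trend), two-sided, on the deposited values of all genes above 0 in at least 3 libraries with the stated mean, Benjamini-Hochberg adjusted over all genes tested, at 0.05. The models were also run on simulated data with independent noise in each library. Such data cannot show how the p-values behave if replicates are technical or a library stands apart. Values in every library are given for genes with a group mean of at least 3, and the 4 tested genes with the smallest p are named for each exposure comparison. Replicate numbers are in the labels, but in no comparison did all 3 same-numbered pairs of libraries deviate together with a correlation over 0.1, so the numbers were not used as pairs. Positions, overlaps and promoters are from RefSeq GRCm38.p6, matched by symbol with Python 3.11.15. Igf2 and Nap1l5, with a mean of at least 1 in 1 tissue only, were left out of counts between tissues. Alternatives were other filters, pseudocounts, scaling, variance models, a replicate block and each library left out.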

Additional observations from a re-analysis of the deposited data

How the results depend on the processing

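No imprinted gene passed between exposures under any filter, pseudocount, scaling, variance model or block tried, and none did with 1 library left out in blastocysts or oocytes. In cumulus cells the count ranged from 0 to 1 with 1 library left out. Counts for the tests of a differing PM2.5 difference ranged from 0 to 1 in each of the 3 tissue pairs. The counts of imprinted genes that passed between tissues, Igf2 and Nap1l5 included, moved with the filter. At a mean of at least 3 they were 4 for blastocysts minus oocytes, 3 for blastocysts minus cumulus cells and 4 for oocytes minus cumulus cells, with PM2.5 and in filtered air alike. Without a filter on the mean they were 19, 16 and 23 with PM2.5 and 21, 17 and 20 in filtered air. Fewer or more genes enter under those filters, and 37 of the 38 were tested without a filter on the mean. Under the settings that kept all libraries, the number of all genes that passed ranged as widely. With PM2.5 it was 3541 to 13585, 2689 to 9968 and 3536 to 13944, in the same order. In filtered air it was 3534 to 13502, 2765 to 9939 and 3517 to 13556. Nothing particular to the imprinted genes is read from their counts here. The replicate block (numbers of libraries as a factor) left each count of imprinted genes within 1.5 times of its value, at 0 for each exposure comparison. Correlations of same-numbered libraries of the 2 exposures were -0.03 to 0.18 in blastocysts, -0.09 to -0.07 in oocytes and -0.24 to -0.16 in cumulus cells. Between tissues of 1 exposure they were -0.171 to 0.125. In PM2.5 oocytes and cumulus cells (0.06 to 0.12) every library correlated best with its own number, a hint from the data and not the design.

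Exposure differences changed sign without ever passing. With 1 library left out, the range was -0.56 to 0.0195 for Snrpn, -0.0861 to 0.15 for Ube3a and -0.0108 to 0.21 for Gnas in oocytes. It was -0.0778 to 0.17 for Cd81 and -0.27 to 0.0553 for Mcts2 in cumulus cells, and -0.12 to 0.31 for Snrpn and -0.0881 to 0.11 for Mcts2 in blastocysts. Under quantile normalization the cumulus differences were -0.0675 for Cd81 and -0.00976 for Gnas, and Plagl1 in oocytes minus cumulus cells in filtered air was 0.34 (adjusted p = 0.0598). The causes were not tested. Tssc4 and Plagl1 in that comparison also lost their calls with 4 single libraries left out (adjusted p up to 0.0995 and 0.0876) and without a filter on the mean (0.0642 and 0.0503), as did Tssc4 at a pseudocount of 4 (0.0563). The number of all genes that passed between exposures in cumulus cells ranged from 6 to 559 with 1 library left out and from 3 to 103 under the other settings, against 8. The ranges were 2 to 11 and 3 to 27 in oocytes, against 9, and 0 to 4 and 0 to 4 in blastocysts, against 0, the last with replicate 1 of both exposures left out. The depth is unknown and sets no stated limit on low genes.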

Other observations

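A further 53 genes reported as imprinted in some mouse tissue were followed beside the 38. Of these 23 were tested between tissues, without leaving out genes that 1 high tissue carried through the filter, such as Kcnq1 (levels below). Nothing particular to these genes is read from the counts. With PM2.5, 9 were higher and 9 lower in blastocysts than in oocytes, 6 higher and 8 lower in blastocysts than in cumulus cells, and 10 higher and 11 lower in oocytes than in cumulus cells. In filtered air the counts were 8 and 12, 7 and 10, and 10 and 11. Over all genes tested with PM2.5, 50.8% were higher and 33.2% lower, 32.4% and 30.7%, and 33.6% and 50.2%, and in filtered air 50.3% and 33.6%, 34.6% and 29.3%, and 33.6% and 49.8%. Between exposures 7 were tested in blastocysts, 7 in oocytes and 9 in cumulus cells, and 0 passed, with 1, 0 and 2 at an unadjusted p under 0.05, against 3.95%, 8.33% and 23.3% of all genes tested.

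Nap1l4, a nucleosome assembly protein gene of the Cdkn1c domain, had cumulus levels of 3.65, 4.52 and 4.26 with PM2.5 and 3.67, 3.35 and 3.46 in filtered air (difference 0.65, SE 0.23, adjusted p = 0.187 by limma). Dhcr7, an enzyme of the last step of cholesterol synthesis, had cumulus levels of 4.12, 3.96 and 4.39 with PM2.5 and 3.87, 2.46 and 3.37 in filtered air (difference 0.92, SE 0.33, adjusted p = 0.188). Blcap, the gene around Nnat, differed by -0.28 in cumulus cells (SE 0.12, adjusted p = 0.219), where Nnat itself had mean levels of 1.56 with PM2.5 and 0.98 in filtered air. Wars, a tryptophan tRNA synthetase gene, had blastocyst levels of 4.45, 4.22 and 4.13 with PM2.5 and 3.85, 4.01 and 3.42 in filtered air (difference 0.51, SE 0.21, adjusted p = 0.998). Kcnq1, the channel gene around Kcnq1ot1, had mean oocyte levels of 3.50 ± 0.47 with PM2.5 and 3.60 ± 0.09 in filtered air (SD, n = 3 each), and no more than 0.12 in any blastocyst or cumulus library.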
